A study of Mus musculus with 11 samples.

Results

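Neuropeptides and peptide hormones are stored in dense core vesicles and released when a cell is stimulated. Propeptides such as those of Adcyap1, which encodes PACAP, and Calca, which encodes calcitonin and the calcitonin gene-related peptide CGRP, are packed with the granins Chga, Chgb and Scg2 and cut there by the proprotein convertases Pcsk1 and Pcsk2. Scg5 encodes 7B2, the chaperone of Pcsk2, and Ptprn and Ptprn2 encode IA-2 and phogrin, phosphatase-family proteins that span the vesicle membrane and lack the usual phosphatase activity. In lung these genes are best known from pulmonary neuroendocrine cells and from tumors of that lineage. These 10 genes were found in the count table by symbol and their transcripts summed, 10 of the 24515 genes of the table. They had been picked with tumor and normal values of these same libraries in view, so their tumor and normal levels are given as a description without a test.

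The libraries came from mice that lack Gprc5a, a receptor gene of lung epithelium, in every group. All mice had received NNK, a nicotine-derived nitrosamine of tobacco, at 50 mg per kg by intraperitoneal injection 3 times a week for 8 weeks. Tumors tagged ADC came from mouse m335 at 4 months after NNK and from mice m372 and m378 at 7 months. Tumors tagged ADN came from mouse m335 at 4 months, mouse m368 at 6 months and mouse m350 at 7 months. The 5 adjacent normal lungs came from the same 5 mice. The labels do not spell out either tag. Every group carried the deletion and the carcinogen, and lungs of untreated or Gprc5a-proficient mice were not analysed here. The labels give lung as the source, and a bulk library cannot tell fewer cells of a type from less RNA per cell.

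Total counts per library ran from 19938822 to 46987587. Ribosomal precursor RNA (Rn45s) held 7.286% of them in the normal lung of mouse m335, the least, and 19.19% in the ADN tumor of mouse m350, the most. Hemoglobin genes held at most 0.5437% in tumors and 0.7823% to 3.32% in normal lungs. Gprc5a itself had 0 to 19 counts. Markers of alveolar type 2 cells, which make surfactant, were abundant in every library, so the tissue label holds. Levels are given as CPM, the count of a gene relative to the TMM-scaled size of its library. The summed level of these markers was 111100 to 139600 CPM in 5 tumors and 38120 CPM in the ADC tumor from mouse m335, against 43530 to 58870 CPM in normal lungs. A list of thymus and T cell genes summed to 200.2 CPM in that ADC tumor. It summed to 16.7 to 33.99 CPM in the other 5 tumors and 61.83 to 800.6 CPM in normal lungs. Most of the sum in that ADC tumor came from the T cell genes Cd4 (110.2 CPM) and Tcf7 (67.22 CPM). Rag1 and Rag2, genes of immature thymus cells, had 0 counts there. That ADC tumor therefore stands apart from the other tumors. Members and list counts whose direction, call or count changes without it are also given without it.

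**Figure D1:**
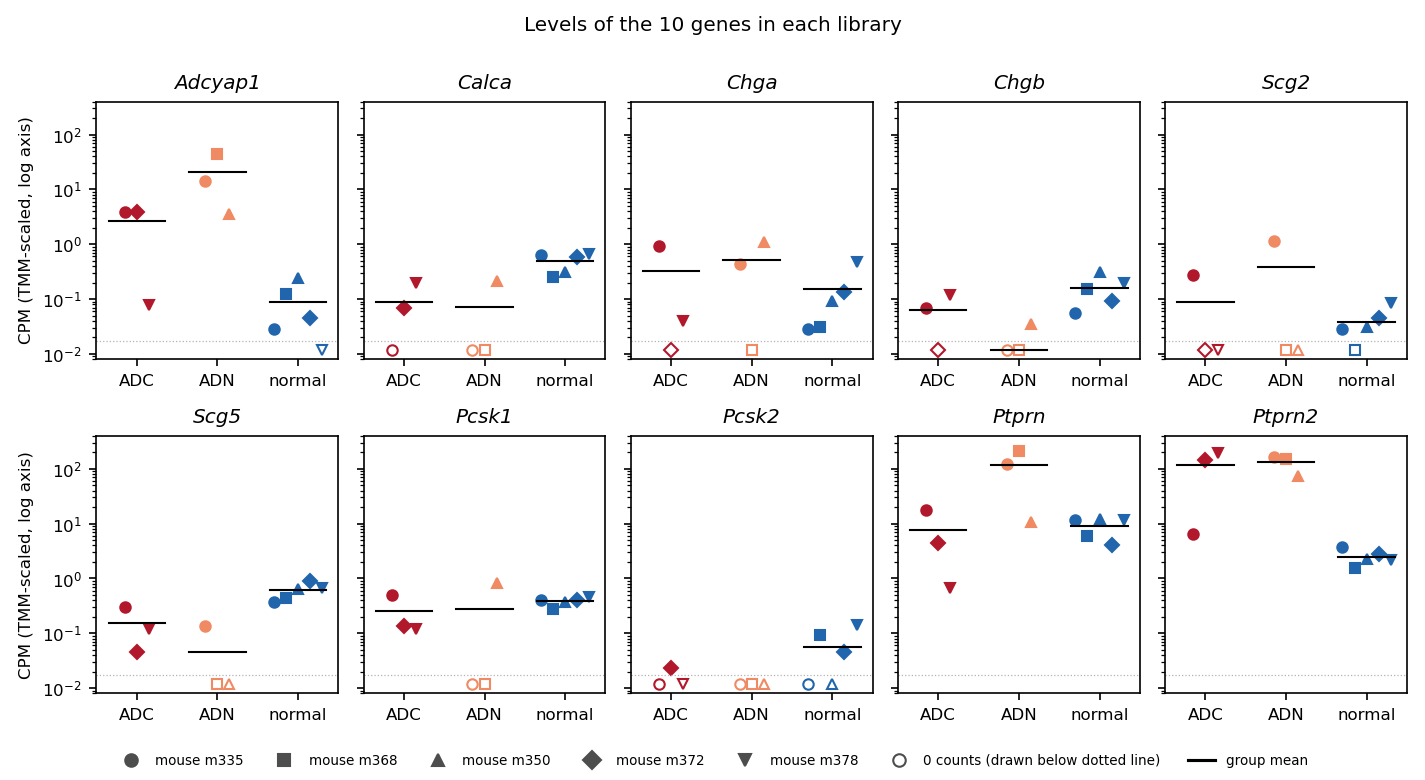
CPM of the 10 genes on a log axis, with 1 point per library, the mouse as the marker shape and the group mean as a bar; points under the dotted line had 0 counts, and the ADC mean of Pcsk2 lies under the axis. Ptprn2 lies above every normal lung in all 6 tumors, Adcyap1 in 5 of 6, and Calca and Scg5 lie below every normal lung in all 6. The genes were picked on this contrast and overlap was not counted over all genes, so this is a description only.

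The vesicle phosphatases held most of the counts of these 10 genes. Ptprn2 and Ptprn together made up 79.84% to 99.66% of them in tumors and 75.12% to 91.04% in normal lungs. Per kilobase of transcript, the mean level over the 6 tumors was 38.5 CPM for Ptprn2, 17.3 CPM for Ptprn, 3.41 CPM for Adcyap1 and at most 0.224 CPM for each of the other 7 genes.

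Ptprn2 lies at chr12:116485720-117278167 on the plus strand (GRCm38), a span of 792448 bases. Its level was 6.458, 146.9 and 193.9 CPM in the ADC tumors of mice m335, m372 and m378. It was 166.2, 152.3 and 74.22 CPM in the ADN tumors of mice m335, m368 and m350. In the normal lungs of mice m335, m368, m350, m372 and m378 it was 3.685, 1.554, 2.289, 2.815 and 2.132 CPM. The groups did not overlap, a description only, and the ADC tumor of mouse m335 was the lowest tumor by far. Means were 123 ± 69.7 CPM (SD, n = 6) in tumors and 2.49 ± 0.803 CPM (SD, n = 5) in normal lungs. Relative to its own normal lung the fold was 1.752 in the ADC tumor of mouse m335 and 32.43 to 98.04 in the other 5 tumors. The fitted log2 fold change with the mouse as a block was 5.57 ± 0.84 (SE, tumors over normal), and without that ADC tumor it was 5.91 ± 0.29. Alveolar type 2 markers were also lowest in that tumor, and their part in the level of Ptprn2 was not tested.

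The genes Gm10421 and Gm5441 overlap it on the opposite strand and had 1 and 0 counts in the tumors together. Mir153, a microRNA gene inside Ptprn2, had 0 counts in every library, and poly-A libraries are not made to hold mature microRNAs. The neighbors Ncapg2, a condensin subunit gene, and Rapgef5, a gene of a small GTPase exchange factor, were expressed in both tissues, at means of 5.71 and 30.2 CPM in tumors and 5.36 and 36.6 CPM in normal lungs. They differed by 0.13 ± 0.47 and -0.32 ± 0.42 on the log2 scale (SE, tumors over normal). Neither passed the quasi-likelihood test of edgeR (adjusted p = 0.897 and 0.687).

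Ptprn, at chr1:75247041-75264208 on the minus strand, is the closest relative of Ptprn2 and behaved differently. Its level was 17.51, 4.498 and 0.6712 CPM in the ADC tumors of mice m335, m372 and m378. It was 122.7, 212.1 and 10.78 CPM in the ADN tumors of mice m335, m368 and m350. The normal lungs of mice m335, m368, m350, m372 and m378 stood at 11.88, 5.967, 12.13, 4.04 and 11.54 CPM. Only 3 tumors lay above every normal lung, while ADC tumor m378 lay below all of them. Its fold over its own normal lung was 0.05815 in that tumor and 35.54 for the ADN tumor of mouse m368, with 4 pairs higher and 2 lower. The fitted log2 fold change was 0.89 ± 1.32 (SE, tumors over normal), and it was -0.10 without the ADN tumor of mouse m368 and 2.75 without the mouse block. The highest tumor held 316 times the level of the lowest, against 3.001 times among normal lungs. Dnajb2 on its left differed by -0.34 ± 0.17 (SE), and Resp18 on its right, a gene of endocrine secretory granules, had 14 counts in the 6 tumors and 51 in the 5 normal lungs.

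Per kilobase of transcript the balance of the 2 phosphatases shifted between libraries. Ptprn2 over Ptprn, in CPM per kilobase, was 0.4094, 36.26 and 320.7 in the ADC tumors of mice m335, m372 and m378. The ratio was 1.504, 0.7975 and 7.643 in the ADN tumors of mice m335, m368 and m350. In the 5 normal lungs it ran from 0.2051 to 0.7735. Ptprn was thus the more abundant phosphatase in 2 tumors, ADC of mouse m335 and ADN of mouse m368, and in every normal lung. Ptprn2 was the more abundant in the other 4 tumors.

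**Figure D2:**
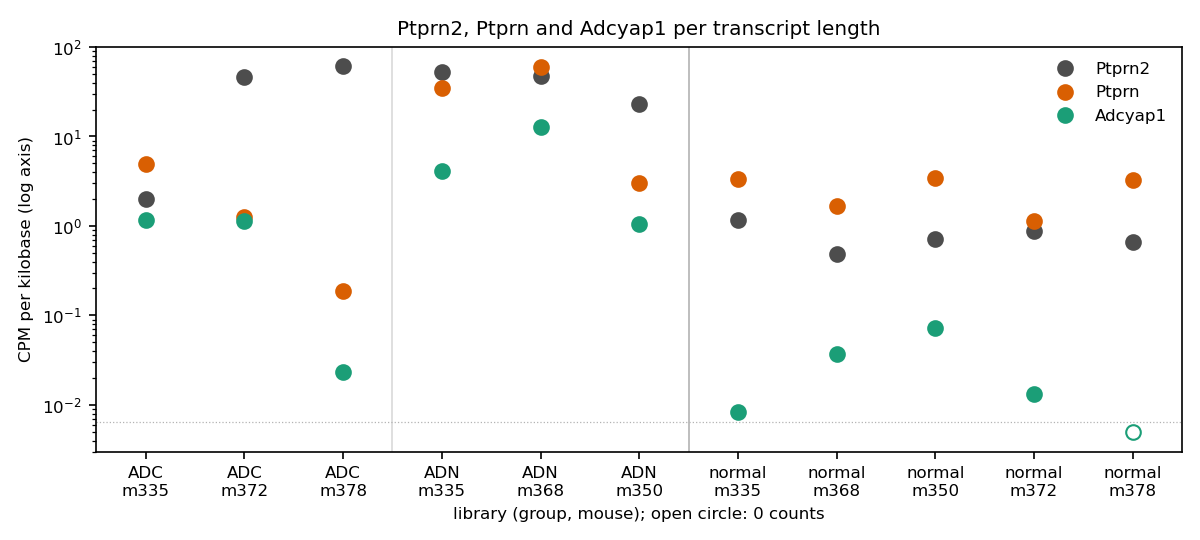
Ptprn2, Ptprn and Adcyap1 in CPM per kilobase of transcript on a log axis, with 1 column per library and tumors left of normal lungs; the open circle had 0 counts. In the 7-month ADC tumors of mice m372 and m378 Ptprn2 stands 36.26 and 320.7 times above Ptprn, and in every normal lung Ptprn is the higher.

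Adcyap1, at chr17:93199017-93206537 on the plus strand, encodes PACAP, a peptide that raises cAMP in cells carrying its receptors. Its level was 3.956, 3.852 and 0.07896 CPM in the ADC tumors of mice m335, m372 and m378, from 117, 167 and 2 counts. It was 14.02, 43.83 and 3.606 CPM in the ADN tumors of mice m335, m368 and m350, from 419, 1256 and 101 counts. The normal lungs of mice m335, m368, m350, m372 and m378 had 1, 4, 8, 1 and 0 counts, at most 0.2475 CPM. The ADC tumor of mouse m378 lay within the range of normal lungs, and the other 5 tumors lay above it. A fold over the own normal lung could be formed where that lung had more than 3 counts, and it was 352.6 in mouse m368 and 14.57 in mouse m350. The fitted log2 fold change was 6.57 ± 0.91 (SE, tumors over normal). Its size depends on the prior count, because normal lungs were near 0. The gene passed the filter on low counts only through its tumor libraries.

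The counts of Adcyap1 were split between transcripts that start at 93199017 and at 93199168. The earlier start took 66.71% and 68.75% in the ADC tumors of mice m335 and m372. It took 40.45%, 69.74% and 98.38% in the ADN tumors of mice m335, m368 and m350. The share of 98.38% recurred in the normal lungs of mice m368 and m350 with 4 and 8 counts, so no order of the tumors was read from it.

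The windows from 250 bases before to 50 bases after the annotated starts of these 3 genes are shown because they are the members with high levels in tumors. They come from RefSeq (GRCm38.p6), 5′ to 3′ on the strand of the gene, with the motif TGACG or its reverse complement CGTCA in capitals. TGACG is the core of the cAMP response element, the site of CREB-family factors. For Adcyap1 (chr17:93198918-93199217, plus strand) the window belongs to the later start, for Ptprn2 it is chr12:116485470-116485769 on the plus strand, and for Ptprn it is chr1:75264159-75264458 on the minus strand.
Adcyap1: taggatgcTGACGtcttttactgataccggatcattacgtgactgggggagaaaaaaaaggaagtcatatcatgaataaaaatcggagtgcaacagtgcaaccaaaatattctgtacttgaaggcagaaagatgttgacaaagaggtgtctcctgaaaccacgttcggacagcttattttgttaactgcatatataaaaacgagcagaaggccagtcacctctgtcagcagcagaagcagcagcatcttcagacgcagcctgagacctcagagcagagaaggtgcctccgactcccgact
Ptprn2: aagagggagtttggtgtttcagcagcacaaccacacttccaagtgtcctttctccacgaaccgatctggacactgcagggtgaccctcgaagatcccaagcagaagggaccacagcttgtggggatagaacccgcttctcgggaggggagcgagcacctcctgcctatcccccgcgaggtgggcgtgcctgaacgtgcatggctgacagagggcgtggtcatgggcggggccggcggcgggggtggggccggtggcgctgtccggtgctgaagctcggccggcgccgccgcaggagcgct
Ptprn: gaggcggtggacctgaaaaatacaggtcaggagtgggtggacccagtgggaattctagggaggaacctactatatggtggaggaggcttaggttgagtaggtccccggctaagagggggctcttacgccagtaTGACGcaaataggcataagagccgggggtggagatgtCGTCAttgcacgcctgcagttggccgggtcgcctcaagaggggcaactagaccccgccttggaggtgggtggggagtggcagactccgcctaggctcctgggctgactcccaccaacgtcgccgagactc
TGACG occurred on either strand in 6822 of 32817 such windows of the genome annotation (20.79%), and in 9 of the 10 genes. The members were counted per gene over 12 windows and the background per window, so these shares are in unlike units. Adcyap1 holds it once, and it also lies in the window of its earlier start. Ptprn holds it at 2 places in the window shown and has no match in its other window, chr1:75263722-75264021. Ptprn2 has no match in its window. The match of a few letters is a description and does not show a bound site.

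The full palindrome TGACGTCA, which contains TGACG on both strands, occurred in 588 of 32817 windows (1.792%) and, again counted per gene, in 3 of the 10 genes. These were Chgb, Scg2 and Pcsk1, at 72, 68 and 78 bases before the RefSeq start that each window was built on. For these 3 genes that start differs from the edge of the gene coordinates given below, which come from the deposited counts. By those coordinates the Chgb palindrome lies inside the gene, so the distances hold for the RefSeq starts only. The 50 bases around it are chr2:132781549-132781598 (plus strand) for Chgb, chr1:79440066-79440115 (minus strand) for Scg2 and chr13:75089758-75089807 (plus strand) for Pcsk1, with the palindrome in capitals. They are shown because these 3 genes hold the full motif. Calca, Chga, Scg5 and Pcsk2, also with few counts in tumors, do not hold it, and neither do the 3 genes above.
Chgb: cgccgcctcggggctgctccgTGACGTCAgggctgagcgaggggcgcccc
Scg2: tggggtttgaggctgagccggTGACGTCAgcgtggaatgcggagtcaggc
Pcsk1: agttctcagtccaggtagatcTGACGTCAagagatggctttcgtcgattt
These 3 genes had at most 34 counts in any library.

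The granins form the core of the vesicle, and none of the 3 passed the filter on low counts. Chga (chr12:102554941-102565027) had 28, 0 and 1 counts in the ADC tumors of mice m335, m372 and m378 and 13, 0 and 31 in the ADN tumors of mice m335, m368 and m350. In normal lungs it had 1 to 17 counts, the most in mouse m378. Chgb (chr2:132781278-132795072) had 2, 0 and 3 counts in the ADC tumors and 0, 0 and 1 in the ADN tumors, against 2 to 10 in normal lungs. Scg2 (chr1:79434669-79440090) had 8, 0 and 0 counts in the ADC tumors and 34, 0 and 0 in the ADN tumors, against 0 to 3 in normal lungs. Chga and Scg2 were each above the normal range in 2 tumors, and the tumors of mouse m335 were the only ones with any Scg2 count. The tumor and normal ranges overlapped for all 3 granins. At these depths 3 counts, the limit that a count of 0 allows, correspond to 0.0692 to 0.1184 CPM in tumors and 0.08504 to 0.1362 CPM in normal lungs, for counting error alone.

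The other propeptide gene, Calca (chr7:114631478-114636357), went the other way from Adcyap1. It had 0, 3 and 5 counts in the ADC tumors of mice m335, m372 and m378 and 0, 0 and 6 in the ADN tumors of mice m335, m368 and m350. Normal lungs of mice m335, m368, m350, m372 and m378 had 22, 8, 10, 13 and 23 counts. Its level was 0 to 0.2142 CPM in tumors and 0.2486 to 0.6538 CPM in normal lungs. The lack of overlap is a description only, and Calca was too low to be tested. The longer transcripts, which reach 114631478 and hold the exons of CGRP, had 0.01295 estimated counts in the 6 tumors and 18.42 in the 5 normal lungs. The shorter ones, which end the gene at 114633291 and encode calcitonin, had 13.99 in tumors and 57.59 in normal lungs. Most of the 18.42 of the longer transcripts came from the normal lungs of mice m350 (7.115) and m372 (8.98). Those lungs also had 629 and 4670 counts of the thymus gene Rag1, against at most 15 in the other normal lungs. The part of thymus cells in the Calca counts was not tested. Calca had at most 6 counts in a tumor, so no shift between its forms was read from these estimates. Pulmonary neuroendocrine cells and sensory nerve fibers are known sources of CGRP in lung.

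The convertases and their chaperone were low throughout. Scg5 (chr2:113776313-113829091) had 9, 2 and 3 counts in the ADC tumors of mice m335, m372 and m378 and 4, 0 and 0 in the ADN tumors of mice m335, m368 and m350. The normal lungs of mice m335, m368, m350, m372 and m378 had 13, 14, 21, 20 and 24 counts. In CPM the tumors reached at most 0.3043 and the normal lungs at least 0.3685, so the groups did not overlap, a description only. The fitted log2 fold change was -3.34 ± 1.14 (SE). Scg5 passed the filter on low counts only through its normal lungs. Pcsk1 (chr13:75089987-75132498) had 15, 6 and 3 counts in the ADC tumors and 0, 0 and 23 in the ADN tumors, against 9 to 16 in normal lungs, with a fitted value of -1.19 ± 1.18 (SE). Pcsk2 (chr2:143546133-143816282) had 1 count in the 6 tumors together and 9 in the 5 normal lungs.

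In all, 5 of the 10 genes passed the filter (Adcyap1, Scg5, Pcsk1, Ptprn and Ptprn2), and 2 of them, Adcyap1 and Ptprn2, lay past an adjusted p of 0.05, the threshold for a call, in tumors over normal lungs. Over all genes that share was 11.6%, with 3.68% higher and 7.91% lower. Since the 10 genes were picked on this contrast, nothing is read from their count. The same holds for members whose tumor and normal levels did not overlap, since overlap was not counted over all genes.

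The test that the choice of genes had not used is that of ADC against ADN tumors, with normal lungs in the fit to carry the mouse. By the quasi-likelihood test of edgeR 0 of the 5 tested members passed, beside a background of 0% of 15175 genes. At an unadjusted p under 0.05 there were 992 genes, and DESeq2 called 125, with 0 members among them. Ptprn differed most, with 7.56 ± 8.83 CPM in ADC and 115 ± 101 CPM in ADN tumors (SD, n = 3 each) and a log2 fold change of -3.33 ± 1.32 (SE, ADC over ADN, edgeR adjusted p = 0.744). Adcyap1 averaged 2.63 ± 2.21 CPM in ADC and 20.5 ± 20.9 CPM in ADN tumors (SD, n = 3 each), a difference of -1.30 ± 1.15 (SE, edgeR adjusted p = 0.841). Ptprn2 averaged 116 ± 97.5 CPM in ADC and 131 ± 49.6 CPM in ADN tumors (SD, n = 3 each), a difference of -1.45 ± 1.36 (SE, edgeR adjusted p = 0.853). With the ADC tumor of mouse m335 left out, the difference of Ptprn2 was 0.37 ± 0.52 (SE), so its direction rests on that library. Scg5 and Pcsk1 differed by 1.55 ± 1.55 and 2.13 ± 2.26 (SE, edgeR adjusted p = 0.860 and 0.865). Over the alternatives Scg5 ranged from 0.39 to 4.85 and Adcyap1 from -2.95 to -0.91. Pcsk1 ranged from -0.92 to 5.96 and was below 0 without the replicate block, without ADN tumor m335 and without mouse m335. The ADC and ADN levels overlapped for every member, a description only, since overlap was not counted over all genes. Each tag had 1 tumor from each of 3 mice, and p-values measure only the spread between these libraries.

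Mouse m335 gave a tumor of each tag beside the same normal lung. Its ADN tumor held 25.73 times the Ptprn2, 7.003 times the Ptprn and 3.545 times the Adcyap1 of its ADC tumor. Scg2 was 4.207 times as high in that ADN tumor, from 34 against 8 counts. Pcsk1 had 0 counts there against 15 in the ADC tumor. Chga and Scg5 stood at 0.4595 and 0.4399 of the ADC level, from 13 against 28 and 4 against 9 counts. With 1 mouse there is no replicate of this comparison.

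A linear term asked whether the tumor effect shifted with the month after NNK, over mice at 4, 6 and 7 months. Again 0 of the 5 tested members passed, beside 0% of all genes (578 at an unadjusted p under 0.05, 47 by DESeq2). The slopes were -1.35 ± 0.73 for Adcyap1, -1.17 ± 0.76 for Ptprn, -1.10 ± 0.81 for Scg5, -0.04 ± 0.91 for Pcsk1 and 0.39 ± 0.55 for Ptprn2 (log2 per month, SE), with edgeR adjusted p of 0.961 for Adcyap1. Only mouse m335 stood at 4 months and only mouse m368 at 6 months, so time and mouse cannot be told apart. Without mouse m335 the slope was -0.90 for Ptprn2 and 2.87 for Scg5, the opposite direction. Over the alternatives the slope ranged from -3.74 to -0.47 for Adcyap1 and from -6.25 to -0.60 for Ptprn, with the lowest values of both when normal lung m335 was left out. The slope of Pcsk1 ranged from -0.41 to 5.44 and was above 0 in 10 of 20 alternatives.

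**Figure D3:**
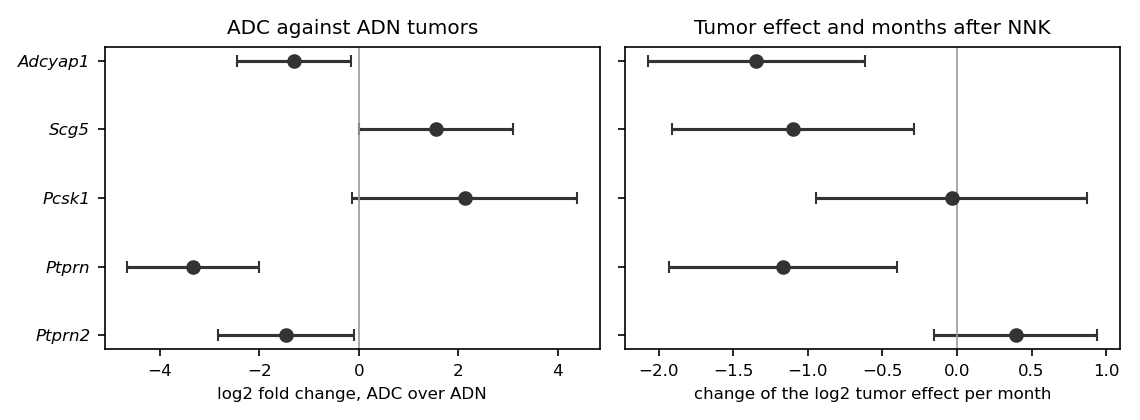
Fitted differences of the 5 tested members with SE bars, for ADC over ADN tumors (left, log2 fold change) and for the tumor effect per month after NNK (right, log2 per month). Ptprn lies farthest from 0 in the left panel at -3.33 ± 1.32, and 0 of the 5 members passed in either panel.

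Other genes of the pathway were read in tumors against normal lungs from lists made with results of these libraries known, by the edgeR test over all genes, beside the 11.6% background (3.68% higher, 7.91% lower) and a median of -0.03 over all genes. Among 11 tested genes of propeptide processing 1 rose and 4 fell, with a median of -0.50 (2 higher and 4 lower without the ADC tumor of m335). Pcsk6, a convertase that acts outside the regulated pathway, rose by 2.95 ± 0.49 on the log2 scale (SE, edgeR adjusted p = 0.00582). It stood at 18.26, 30.82 and 55.31 CPM in the ADC tumors of mice m335, m372 and m378 and at 108.2, 105.7 and 43.56 CPM in the ADN tumors of mice m335, m368 and m350. Normal lungs were at 5.754 to 9.125 CPM, below every tumor. Pcsk5, a related convertase, fell by 1.83 ± 0.24 and Cpe, the carboxypeptidase that trims peptides after the convertases, by 1.77 ± 0.33 on the log2 scale (SE). Cpe was 3.35 to 9.633 CPM in tumors and 17.54 to 23.61 CPM in normal lungs. Pam, which amidates peptides, fell by 0.92 ± 0.19, and this call was lost without mouse m350 or m378, tumor or normal lung (adjusted p = 0.0602 to 0.0746). Cpd, a broadly expressed carboxypeptidase, fell by 0.60 ± 0.16, a call lost in 16 of 20 alternatives (adjusted p = 0.0637 to 0.165). Furin, the ubiquitous convertase, differed by 0.03 ± 0.20 (SE).

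Of 11 tested genes of granule formation and loading 0 rose and 0 fell, with a median of 0.29. With the ADC tumor of m335 left out 3 of them were higher and 0 lower, and 0 were called by DESeq2. Scg3 and Vgf, also granins, did not pass the filter. Of 21 tested genes of regulated exocytosis 3 rose and 1 fell, with a median of 0.34 (4 higher and 2 lower without the ADC tumor of m335). Sytl5, an effector of Rab27, rose by 3.39 ± 0.39 and Rab27a, a GTPase of secretory granules and lysosome-related organelles, by 1.53 ± 0.24 (SE, log2, edgeR adjusted p = 0.00121 and 0.00426). Sytl5 was 4.666 to 14.9 CPM in tumors and 0.5953 to 1.907 CPM in normal lungs, without overlap. Rab3c, a GTPase of secretory vesicles, rose by 2.26 ± 0.42, with 80.92 CPM in the ADN tumor of mouse m368, 6.289 to 14.61 CPM in the other tumors and 1.77 to 4.817 CPM in normal lungs.

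The receptors of these peptides did not rise with Adcyap1. Of 8 tested genes 0 rose and 4 fell, with a median of -1.98. Adcyap1r1, the PACAP-selective receptor, was 0.5072, 0.6459 and 0.5922 CPM in the ADC tumors of mice m335, m372 and m378 and 0.7363, 0.2094 and 2.071 CPM in the ADN tumors of mice m335, m368 and m350. It was 2.673 to 6.548 CPM in normal lungs, above every tumor, and fell by 2.86 ± 0.46 on the log2 scale (SE, edgeR adjusted p = 0.00524). Vipr2, which binds PACAP and VIP, fell by 1.48 ± 0.30, and this call was lost without mouse m378, tumor or normal lung, or without normal lung m335 (adjusted p = 0.0575 to 0.0694). Calcrl and Ramp2, which form a receptor for adrenomedullin, fell, with log2 fold changes of -2.596 ± 0.22 and -2.48 ± 0.28 (SE). Vipr1 (-0.17 ± 0.37), Ramp1 (-0.14 ± 0.32), Ramp3 (-0.35 ± 0.44) and Calcr (-2.54 ± 0.81, adjusted p = 0.0803) did not pass. Markers of endothelial cells fell in 8 of 10 genes (10 without the ADC tumor of m335), with summed levels of 681.5 to 1086 CPM in tumors and 2876 to 4807 CPM in normal lungs, and their part in the receptor levels was not tested.

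Of 12 tested genes for other peptides 0 rose and 2 fell, with a median of -0.86. Another 19 of the 31 measured were too low to test, Vip among them. Edn1, endothelin 1, fell by 2.48 ± 0.33 on the log2 scale (SE). Calcb, the neighbor of Calca that encodes a second CGRP, fell by 3.43 ± 0.94, a call lost in 17 of 20 alternatives (adjusted p = 0.0595 to 0.215). Among 16 other receptor-type phosphatases 0 rose and 2 fell, Ptprb of endothelium by 2.48 ± 0.21 and Ptpra by 0.71 ± 0.14, with a median of -0.78. These counts were 2 higher and 6 lower with the ADC tumor of m335 left out, and 1 higher and 6 lower by DESeq2. The Ptpra call was lost without mouse m350, tumor or normal lung, or without normal lung m335 (adjusted p = 0.0511 to 0.0573). Of 12 genes induced through cAMP 0 rose and 2 fell, Pde4b by 1.22 ± 0.20 and Rgs2 by 1.06 ± 0.24 (1 higher and 2 lower without the ADC tumor of m335, 1 higher and 4 lower by DESeq2). The Rgs2 call did not hold when either library from mouse m350, m372 or m378 was left out (adjusted p = 0.0709 to 0.0912). REST, the repressor of neuronal genes, and its corepressors had 0 of 5 past the threshold, with Rest itself at 0.78 ± 0.28 (SE, edgeR adjusted p = 0.119).

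**Figure D4:**
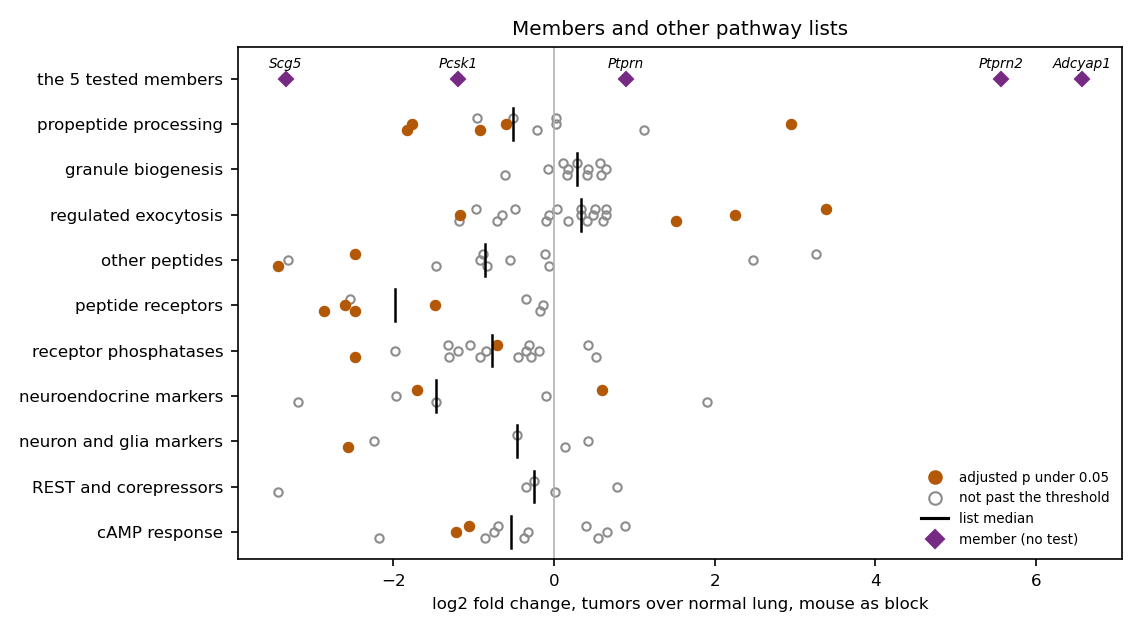
Log2 fold changes of tumors over normal lungs (fit with the mouse as a block) for the 5 tested members, as diamonds without a test, and for each gene of 10 other lists, filled where the adjusted p was under 0.05, with the list median as a bar. Adcyap1 (6.57) and Ptprn2 (5.57) lie above every gene of the other lists, and 4 of 8 receptor genes are filled and lower. The members were picked on this contrast, so nothing is read from their place.

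The neuroendocrine lineage was read from 14 other markers. The transcription factor Neurod1 and the Notch ligand Dll3 had 0 counts in all 6 tumors, and the transcription factor Insm1 had at most 7 counts in a tumor. Of 7 tested markers 1 rose and 1 fell (2 higher and 1 lower without the ADC tumor of m335, 2 higher and 4 lower by DESeq2). Hes6, also expressed outside this lineage, rose by 0.60 ± 0.15 and Syp, synaptophysin, fell by 1.70 ± 0.46 (SE, log2), and these calls were lost in 16 and 14 of 20 alternatives (adjusted p = 0.0547 to 0.153 and 0.0557 to 0.179). The summed level of the list was 55.25 to 185.7 CPM in tumors and 75.58 to 107.1 CPM in normal lungs, mostly from Bex2, Hes6 and Cplx2. Of 5 tested neuron and glia markers 0 rose and 1 fell (Stmn2, by 2.56 ± 0.29), with summed levels of 13.69 to 24.92 CPM in tumors and 43.13 to 74.61 CPM in normal lungs. In ADC against ADN tumors 0 genes passed in each of these lists.

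Normal lungs also differed in tissue carried along. Summed skeletal muscle genes were at most 8.668 CPM in tumors and reached 737 CPM in normal lung from mouse m335. Summed fat genes were at most 24.68 CPM in tumors and reached 674.6 CPM in normal lung from mouse m368. Thymus and T cell genes summed to 180.6 and 800.6 CPM in normal lungs from mice m350 and m372. Rag1 had 629 and 4670 counts in these lungs and at most 15 in the other normal lungs. Their part in the levels of the low members in normal lungs was not tested.

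The genes with the most similar profiles were found by the root mean square difference of centred log2 CPM over all 11 libraries. For Ptprn2 these were Ros1, a receptor tyrosine kinase gene (0.93), Myh7, a cardiac and slow-muscle myosin gene (0.97), and Pkhd1, the fibrocystin gene (0.98), beside a spread of 2.84 for Ptprn2 itself. Like Ptprn2, each was lowest among tumors in the ADC tumor of mouse m335, with Ros1 at 1.082 CPM there and 23.67 to 78.21 CPM in the other 5. Normal lungs had 1.554 to 5.13 CPM of Ros1. For Adcyap1 they were Ivl, a cornified envelope gene (1.33), Ereg, an epidermal growth factor receptor ligand gene (1.43), and Rhbdl2, a rhomboid protease gene (1.57), beside a spread of 3.15 for Adcyap1 itself. In the ADC tumor of mouse m378, the lowest for Adcyap1, these 3 were also lowest among tumors, with Ivl at 0.2764 CPM and Ereg at 7.028 CPM. These profiles were chosen for likeness and carry no test.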

How the data were processed

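RNA of 11 mouse lung samples was sequenced from poly-A libraries (Ion Total RNA-Seq Kit v2), per the labels' protocols. The submitters' processing notes name the build mm10 (GRCm38), Partek, Bowtie2 2.1.0 and STAR 2.4.1d; what each did, and whether strand was used, is not given in the sources used here. The authors deposited a table of estimated counts for 36285 transcripts, whose values need not be whole and carry no normalization. These were summed to 24515 genes and rounded; 78.4% to 86.2% of the sums were whole within 0.01. filterByExpr kept 15175 genes with 99.9% of counts. TMM scaling and the robust quasi-likelihood test of edgeR 4.0.16 (R 4.3.3) were used with the mouse as a block, two-sided, adjusted by Benjamini-Hochberg over all tested genes at 0.05. DESeq2 1.42.0 was an alternative. CPM uses TMM-scaled totals and the log2 profiles a prior count of 2. CPM per kilobase divides by the longest matched GENCODE transcript of the gene. The code was tested on simulated data. Members and lists were chosen with earlier results of these data known.

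Tumors and normal lungs were paired by the labels' mouse identifiers. A tumor's deviations from its group mean correlated with those of its normal lung at -0.0444, -0.0367 and 0.254 (ADC, mice m335, m372 and m378) and at 0.240, 0.109 and 0.00493 (ADN, mice m335, m368 and m350). Named genes were the 10 members, the called genes of each list (up to 5), all receptor genes and the 3 most similar profiles of Adcyap1 and Ptprn2. Single genes beside these (neighbors, Furin, Rest and the markers at or near 0) were named after their values were seen. A few genes of the lists are not reported here.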

Additional observations from a re-analysis of the deposited data

Results flagged for a closer look

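In each gene the tumors and the normal lungs were examined for a library far from the rest of its group, 20 groups in all, and 4 stood out. Chance flags about 1 group in 20 where values are normally distributed. Levels near 0 are not, and a single count among zeros is always flagged, so the 4 flags are not set against that rate. The ADN tumor of mouse m368 had the highest Adcyap1 of the tumors, at 43.83 CPM from 1256 counts. The ADN tumor of mouse m335 had the highest Scg2 of the tumors, at 1.138 CPM from 34 counts. The ADC tumor of mouse m372 had the only Pcsk2 count among tumors, at 0.02307 CPM. The normal lung of mouse m378 had the highest Chga of the normal lungs, at 0.4833 CPM from 17 counts.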

How the results depend on the processing

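In tumors against normal lungs 1759 genes passed with the mouse as a block (558 higher, 1201 lower), 2242 without the replicate block, 3286 by DESeq2, 1602 without the filter and 917 to 3377 when libraries or mice were left out, the most without the ADC tumor of m335. Under library totals in place of TMM 2073 passed (359 higher, 1714 lower), with the median of all genes at -0.22. Ptprn2 ranged from 5.22 to 5.999 and Adcyap1 from 5.73 to 7.84 over the alternatives that gave a value; Adcyap1 did not pass the filter in 6 of 20. Scg5, not past the threshold in the main fit, crossed it by DESeq2 (-3.70) and with ADC tumor m335 left out (-3.50). Like every member it had been chosen with this contrast in view, so no weight is put on those calls. Ptprn ranged from -0.10 to 1.86 when libraries were left out, and was -0.10 without the ADN tumor of mouse m368 or without that mouse and -0.09 without its normal lung. In ADC against ADN tumors 3 genes passed without the replicate block, 125 by DESeq2, 5 without the filter and 0 to 2 when libraries were left out. Pcsk1 was -0.10 there without the replicate block and -0.92 to 5.96 when libraries were left out, and Ptprn2 -2.83 to 0.37, with 0.37 without the ADC tumor of mouse m335 and 0.26 without that mouse. For the tumor effect per month 47 genes passed by DESeq2 and 0 to 405 when libraries were left out, the most without mouse m335. There Pcsk1 was 0.11 without the replicate block, and when libraries were left out Pcsk1 ranged from -0.41 to 5.44, Scg5 from -1.51 to 2.87 and Ptprn2 from -0.90 to 1.58. In tumors against normal lungs Ptprn was 2.75 without the replicate block, against 0.89 with it, and Calcb lost its call without it. Counts of called list genes under every setting were added after seeing the data: the receptors had 3 to 5 lower, exocytosis 3 to 5 higher and 0 to 2 lower, receptor phosphatases 0 to 2 higher and 1 to 6 lower, neuroendocrine markers 0 to 2 higher and 0 to 4 lower, genes induced through cAMP 0 to 1 higher and 1 to 4 lower, REST and its corepressors 0 to 1 in each direction, propeptide processing 2 to 4 lower and 1 to 2 higher, granule formation 0 to 3 higher, and other peptides 1 to 3 lower and 0 to 2 higher. The causes were not tested. Genes with few counts, among them 5 of the 10 members, could not be tested at this depth.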

Other observations

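Several other peptide genes were high in a few tumors without passing the test. Penk, which encodes enkephalins, was 63.77 CPM in the ADC tumor of mouse m335, 0.692 to 3.581 CPM in the other 5 tumors and 0.9589 to 5.584 CPM in normal lungs. Pthlh, which encodes a parathyroid hormone-related peptide, was 4.057, 0.09227 and 0.5922 CPM in the ADC tumors of mice m335, m372 and m378 and 16.4, 6.839 and 3.927 CPM in the ADN tumors of mice m335, m368 and m350, against at most 0.4252 CPM in normal lungs. Its log2 fold change was 3.26 ± 1.28 (SE, edgeR adjusted p = 0.146). Adm2, which encodes intermedin, was 4.26, 13.24 and 11.88 CPM in the same ADC tumors and 0.502, 0.2443 and 5.498 CPM in the same ADN tumors, against 0.06187 to 3.696 CPM in normal lungs. These 3 genes were singled out after their values were seen.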
